A study of Homo sapiens with 12 samples.

Results

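The genes described here are those of the step at which cells set the rate of translation initiation under stress: the 4 eIF2α kinases, the α subunit of the initiation factor eIF2 and the 5 subunits of eIF2B. They were chosen by symbol, with earlier results of these data known, as EIF2AK1, EIF2AK2, EIF2AK3, EIF2AK4, EIF2S1, EIF2B1, EIF2B2, EIF2B3, EIF2B4 and EIF2B5. These 10 are among the 61510 genes of the deposited tables, and all 10 passed the filter on low counts that left 15653 genes for testing. The libraries are bulk RNA-seq of A549/DDP, a derivative of the A549 lung adenocarcinoma line selected for resistance to cisplatin. The 4 groups were cells with the shNRF2 hairpin under GNA, the same cells under DMSO, cells with the shNC control hairpin under GNA, and those under DMSO, with 3 libraries in each. GNA is gambogenic acid, a plant-derived xanthone, given at 4 µM for 24 h once cultures had reached 70% confluence, and DMSO is its solvent. All 4 groups carried a hairpin and were grown in medium with 1 µg/ml cisplatin, so no group was free of either. Whether a group's 3 libraries are separate cultures, and whether a hairpin line is 1 clone or a pool, is not in the labels. The spread behind each p-value is therefore that among libraries and could be technical.

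The factor eIF2 brings the initiator methionyl-tRNA to the small ribosomal subunit and leaves it bound to GDP. eIF2B then exchanges that GDP for GTP. A kinase that phosphorylates the α subunit turns eIF2 into an inhibitor of eIF2B, which lowers initiation on most mRNAs while a few, such as that of ATF4, are translated more. This is the core of the integrated stress response. HRI (EIF2AK1) responds to low heme and relays mitochondrial stress, PKR (EIF2AK2) to double-stranded RNA, PERK (EIF2AK3) to unfolded protein in the endoplasmic reticulum, and GCN2 (EIF2AK4) to uncharged tRNA and stalled ribosomes. Phosphorylation and kinase activity are protein properties that transcript counts do not measure.

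Total counts lay between 12848607 and 15637944 in the shNRF2 GNA libraries, 13158101 and 15776177 in shNRF2 DMSO, 13599974 and 15896846 in shNC GNA, and 15118635 and 17192671 in shNC DMSO. Levels are given as CPM, counts scaled to a common library size with TMM, a normalisation that assumes most genes do not change. NFE2L2, which encodes NRF2, averaged 45.8 ± 2.0 CPM in shNRF2 cells under GNA and 87.4 ± 3.85 in shNC cells under GNA, and 50.2 ± 2.80 in shNRF2 cells under DMSO and 77.94 ± 3.604 in shNC cells under DMSO (SD, n = 3 each), so the hairpin label held in both treatments. Of 5 epithelial markers, 4 passed the filter, while KRT19 had 0 to 2 counts in every library. Their summed level was lower under GNA, at 9460 to 9930 CPM in shNRF2 GNA libraries against 15300 to 15900 in shNRF2 DMSO, and at 9740 to 10000 CPM in shNC GNA against 15600 to 16500 in shNC DMSO. That sum is nearly all KRT8 and KRT18, which were called lower under GNA in both backgrounds. CDH1 (E-cadherin) went another way, at 66.6 CPM in shNRF2 GNA, 63.6 in shNRF2 DMSO, 45.3 in shNC GNA and 33.05 in shNC DMSO on average. It was called higher in shNRF2 than in shNC cells under both treatments, and higher under GNA than under DMSO in shNC cells (edgeR adjusted p = 7.15e-05). EPCAM, at 29 to 53 counts per library, was called in no comparison. The part of these marker shifts in the results was not tested. None of 3 leukocyte and 3 endothelial markers passed the filter, with summed levels of at most 0.675 and 0.66 CPM in any library, and the 4 fibroblast markers summed to 5.44 to 8.30 CPM. Library 1 of shNC DMSO stood somewhat apart. In a chi-square test of counts over genes, divided by its degrees of freedom, it scored 8.02 against library 2 and 6.30 against library 3, while those 2 scored 3.73 and the pairs of other groups 2.28 to 5.30. Calls of the 10 members that use shNC DMSO are therefore also given without it.

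The promoters of the 3 members whose group means spanned the widest range are shown because the results below turn on them. Sequences are from RefSeq on GRCh38.p14, which matched 9 of the 10 members, and each runs 5′ to 3′ on the gene's own strand. EIF2AK1 had no entry, so its promoter was not searched. Capitals mark CCAAT on either strand (ATTGG on the other), and the last 10 bases of the EIF2AK2 stretch are its match to the core of the interferon-stimulated element, GAAA and GAAA with 2 bases between.
EIF2AK2: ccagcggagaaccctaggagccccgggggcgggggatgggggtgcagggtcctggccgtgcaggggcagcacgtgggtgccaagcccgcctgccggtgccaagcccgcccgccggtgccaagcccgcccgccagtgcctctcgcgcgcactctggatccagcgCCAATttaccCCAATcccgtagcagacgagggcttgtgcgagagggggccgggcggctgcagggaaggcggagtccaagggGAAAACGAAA
EIF2AK3: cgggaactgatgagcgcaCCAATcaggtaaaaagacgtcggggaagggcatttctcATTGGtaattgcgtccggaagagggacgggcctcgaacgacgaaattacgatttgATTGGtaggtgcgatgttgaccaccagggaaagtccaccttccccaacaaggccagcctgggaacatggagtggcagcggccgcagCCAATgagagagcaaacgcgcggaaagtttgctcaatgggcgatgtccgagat
EIF2S1: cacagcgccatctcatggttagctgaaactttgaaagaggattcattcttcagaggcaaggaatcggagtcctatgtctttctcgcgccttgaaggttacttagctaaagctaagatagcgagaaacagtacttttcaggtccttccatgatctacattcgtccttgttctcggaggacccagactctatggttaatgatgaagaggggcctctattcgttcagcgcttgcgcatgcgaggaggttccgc
The EIF2AK2 stretch is chr2:37156977-37157230 on the minus strand and ends 4 bases past the annotated start. The EIF2AK3 stretch is the 250 bases before its start, chr2:88627465-88627714 on the minus strand. That of EIF2S1 is chr14:67360078-67360327 on the plus strand. All starts in this paragraph are those of RefSeq, and the gene positions given below, from GENCODE, start further upstream for these genes. EIF2S1 starts there at 67359997, so its whole stretch lies inside that gene span. EIF2AK3 starts there at 88627576 and EIF2AK2 at 37157065, so their stretches lie partly inside. The bases before the GENCODE start of EIF2S1 were not searched. In windows from 250 bases before to 50 after each start, searched on both strands, the interferon-stimulated core was found in EIF2AK2 alone among the members with an entry, and in 3.57% of all 35116 promoters. CCAAT was found at 4 places in EIF2AK3, at 2 in EIF2AK2 and at 1 each in EIF2B2, EIF2B3 and an EIF2B4 promoter, with 34.6% of all promoters holding at least 1. The short antioxidant response core TGACNNNGC, the motif associated with NRF2, matched in EIF2B1 only, 31 bases past its start, and in 13.3% of all promoters. No member with an entry held the letters TGATGNAA of the C/EBP-ATF element (3.62% of promoters), the heat shock element as GAA, TTC and GAA with 2 bases between each (0.49%), or the ER stress element as CCAAT and CCACG with 9 bases between (0.0769%). These are matches of letters within one window and say nothing of occupancy.

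The called changes in these genes were modest, from 0.13 to 0.65 in size on the log2 scale. Genes were called at an adjusted p under 0.05 in edgeR's quasi-likelihood test with Benjamini-Hochberg adjustment over all genes tested. Under GNA in shNRF2 cells, 1 member was higher (EIF2AK2) and 0 lower, while 16.7% of all tested genes were higher and 17.0% lower. Under GNA in shNC cells, 4 were lower (EIF2S1, EIF2B5, EIF2B4 and EIF2AK1) and 0 higher, where 16.1% of all tested genes were lower and 14.6% higher. With the hairpins compared under GNA, 3 kinases were higher in shNRF2 cells (EIF2AK3, EIF2AK2 and EIF2AK1) and 0 members lower, against 12.8% and 13.3% of all genes. Under DMSO, 1 was higher in shNRF2 cells (EIF2AK3) and 2 lower (EIF2S1 and EIF2AK2), against 16.8% and 18.3% of all genes. The difference between the GNA responses of shNRF2 and shNC cells, the interaction of the design, was called for 2 members, both positive (EIF2S1 and EIF2AK2), where 3.58% of all genes were positive and 3.24% negative. Counted by groups whose libraries did not overlap, 1 member was higher and 2 lower under GNA in shNRF2 cells (22.8% and 22.1% of tested genes), and 0 higher and 4 lower in shNC cells (20.5% and 20.2%). Between hairpins, 3 were higher and 1 lower in shNRF2 cells under GNA (21.2% and 19.7%), and 1 higher and 2 lower under DMSO (21.3% and 21.9%). With 10 members, most of these counts lie within 1 or 2 genes of the background share. EIF2AK4, EIF2B1, EIF2B2 and EIF2B3 were called in none of the 5 comparisons. The comparisons share libraries, so a group that stands apart enters several of them at once. In bulk RNA, a change in the RNA of each cell and a change in the mixture of cells cannot be told apart.

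**Figure D1:**
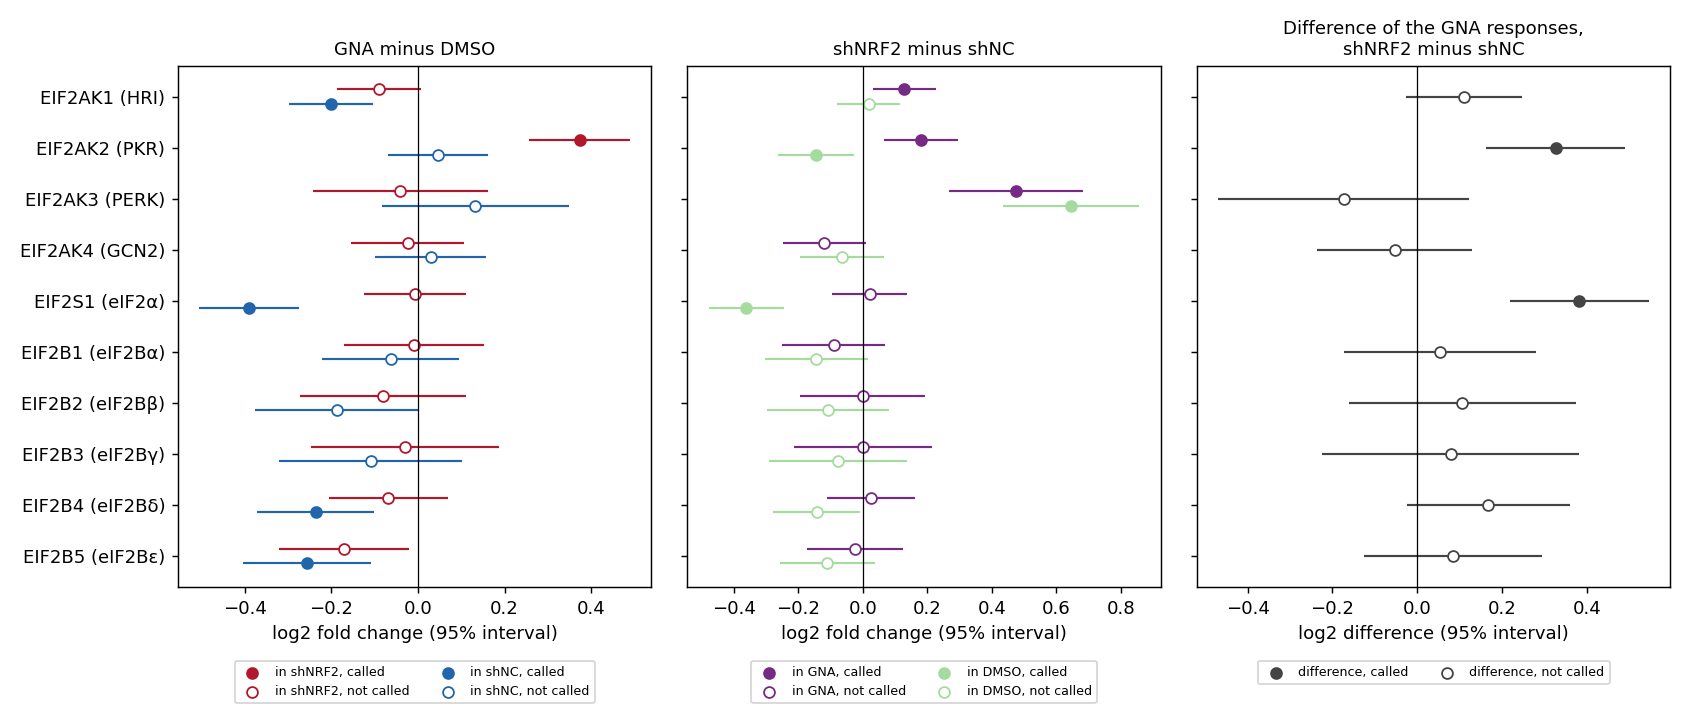
Log2 fold changes of the 10 genes with 95% intervals on the horizontal axis, for GNA minus DMSO (left), shNRF2 minus shNC (middle) and the difference of the GNA responses (right). Filled points passed the adjusted p threshold. EIF2AK2 in shNRF2 cells sits at 0.37 and EIF2S1 in shNC cells at -0.39, while EIF2AK3 is the member with the greatest hairpin difference, 0.47 under GNA and 0.65 under DMSO.

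EIF2AK1, on chromosome 7 (6022244 to 6059230, minus strand, GRCh38), encodes HRI. It measured 258.6, 236.6 and 247.0 CPM in shNRF2 GNA libraries, against 266.1, 264.0 and 259.6 CPM in shNRF2 DMSO. In shNC cells it measured 231.0, 223.6 and 224.0 CPM under GNA, against 250.7, 259.7 and 269.3 CPM under DMSO. The GNA libraries lay below the DMSO libraries without overlap in both backgrounds. In shNRF2 cells the log2 fold change was -0.09 ± 0.05 (SE) and was not called (edgeR adjusted p = 0.152). In shNC cells EIF2AK1 fell by 0.20 ± 0.05 on the log2 scale (edgeR adjusted p = 0.00168, and 9.21e-04 without shNC DMSO library 1), a change of -13.0%. The difference between the responses, 0.11 with a 95% interval of -0.03 to 0.25, was not called (edgeR adjusted p = 0.377). The shNC value depends on the scaling: with library totals in place of TMM, which moves the median of all genes by 0.10 in this comparison, it was -0.10 (edgeR adjusted p = 0.107).

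Under GNA, EIF2AK1 was higher in shNRF2 than in shNC cells by 0.13 ± 0.05 on the log2 scale, with all 3 shNRF2 libraries above all 3 shNC libraries (edgeR adjusted p = 0.0434). That call did not hold with DESeq2 size factors (edgeR adjusted p = 0.0581). It was also lost without any one of 5 libraries. The edgeR adjusted p was 0.212 without shNRF2 GNA library 1, 0.0962 without shNRF2 GNA library 3, 0.0579 without shNRF2 DMSO library 2, 0.130 without shNC GNA library 2 and 0.105 without shNC GNA library 3. Under DMSO the hairpin difference was 0.02 ± 0.05 (edgeR adjusted p = 0.805). The EIF2AK1 exons share 532 bases with those of AIMP2 on the opposite strand, and whether reads were counted by strand is not given in the sources used here. AIMP2, a scaffold of the tRNA synthetase complex, averaged 35.0 CPM in shNRF2 GNA, 39.5 in shNRF2 DMSO, 33.4 in shNC GNA and 36.7 in shNC DMSO libraries, and was called in no comparison.

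EIF2AK2, on chromosome 2 (37099210 to 37157065, minus strand), encodes PKR and is known as an interferon-induced gene. In shNRF2 cells it measured 105.6, 111.5 and 105.3 CPM under GNA, against 82.9, 83.1 and 83.02 CPM under DMSO. The shNC values were 89.9, 97.2 and 97.1 CPM under GNA, against 86.8, 96.8 and 91.6 CPM under DMSO. The shNRF2 GNA libraries were thus the highest of the 12 and the shNRF2 DMSO libraries the lowest, and the groups overlapped in shNC cells. EIF2AK2 rose by 0.37 ± 0.06 on the log2 scale in shNRF2 cells, or 29.5%, with a 95% interval of 0.26 to 0.49 (edgeR adjusted p = 7.21e-06). In shNC cells the log2 fold change was 0.05 ± 0.06, with an interval of -0.07 to 0.16 (edgeR adjusted p = 0.580). With library totals in place of TMM the shNC value was 0.15 and was called (edgeR adjusted p = 0.038).

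The difference between these responses was 0.33 ± 0.08 on the log2 scale, with an interval of 0.16 to 0.49 (edgeR adjusted p = 0.0117, and 0.0036 without shNC DMSO library 1). It was not called by limma on log2(FPKM + 1), at an adjusted p of 0.0518, or on log2(FPKM + 0.1), at 0.0549. Compared between hairpins under GNA, EIF2AK2 was higher in shNRF2 cells by 0.18 ± 0.06 (edgeR adjusted p = 0.0163). That call was lost without shNRF2 GNA library 2 (edgeR adjusted p = 0.0869), without shNC GNA library 1 (0.0911) and with no filter on low counts (0.0577). Under DMSO the gene was lower in shNRF2 cells by a log2 fold change of -0.14 ± 0.06, at the threshold (edgeR adjusted p = 0.0498). The DMSO call stood in 3 of 10 other settings. It stood without shNC DMSO library 1 (edgeR adjusted p = 0.0116) or shNC GNA library 1 (0.0414), and was lost without any one of the other 10 libraries, with adjusted p-values of 0.0530 to 0.225. EIF2AK2 shares 35 exonic bases with GPATCH11 on the opposite strand, which moved the other way in shNRF2 cells, with a log2 fold change of -0.31 under GNA (edgeR adjusted p = 0.00288).

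EIF2AK3, on chromosome 2 (88556741 to 88627576, minus strand), encodes PERK and was the member whose level followed the hairpin. It measured 24.8, 21.8 and 24.1 CPM in shNRF2 GNA libraries, against 15.91, 14.93 and 19.95 CPM in shNC GNA. Under DMSO it measured 24.0, 23.5 and 25.2 CPM in shNRF2 cells, against 16.0, 14.5 and 16.0 CPM in shNC cells. All 6 shNRF2 libraries lay above all 6 shNC libraries, with shNC GNA library 3 the nearest. EIF2AK3 was higher in shNRF2 cells by 0.47 ± 0.10 on the log2 scale under GNA, or 38.9%, with an interval of 0.27 to 0.68 (edgeR adjusted p = 7.66e-04). Under DMSO it was higher by 0.65 ± 0.10, or 56.6%, with an interval of 0.44 to 0.86 (edgeR adjusted p = 1.49e-05, and a log2 fold change of 0.66 without shNC DMSO library 1). In the DMSO comparison 15.9% of tested genes had a greater change in either direction. Both hairpin calls stood in every other setting and without each library in turn, with log2 fold changes of 0.25 to 0.61 under GNA and 0.33 to 0.70 under DMSO. The lowest values came from log2(FPKM + 1), which compresses genes of low level.

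No change of EIF2AK3 under GNA was called. Its log2 fold change was -0.04 with an interval of -0.24 to 0.16 in shNRF2 cells (edgeR adjusted p = 0.795), and 0.13 with an interval of -0.08 to 0.35 in shNC cells (edgeR adjusted p = 0.370). The difference between those, -0.17 ± 0.14, was not called either (edgeR adjusted p = 0.569). With 221 to 392 counts per library, EIF2AK3 was measured less precisely than the other kinases, whose libraries each held at least 1055 counts. An antisense gene that shares 781 exonic bases with it had at most 1 count in any library.

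EIF2AK4, on chromosome 15 (39934146 to 40035591, plus strand), encodes GCN2. It measured 79.6, 84.1 and 81.8 CPM in shNRF2 GNA libraries and 83.1, 81.6 and 84.9 CPM in shNRF2 DMSO. The shNC values were 91.3, 87.2 and 87.9 CPM under GNA and 78.8, 85.6 and 96.6 CPM under DMSO, where the 3 libraries were the most spread. Under GNA the shNRF2 libraries lay below the shNC libraries without overlap, but the log2 fold change of -0.12 ± 0.06 was not called (edgeR adjusted p = 0.178). Its GNA log2 fold changes were -0.02 with an interval of -0.15 to 0.11 in shNRF2 cells and 0.03 with an interval of -0.10 to 0.16 in shNC cells (edgeR adjusted p = 0.810 in shNRF2 and 0.771 in shNC).

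**Figure D2:**
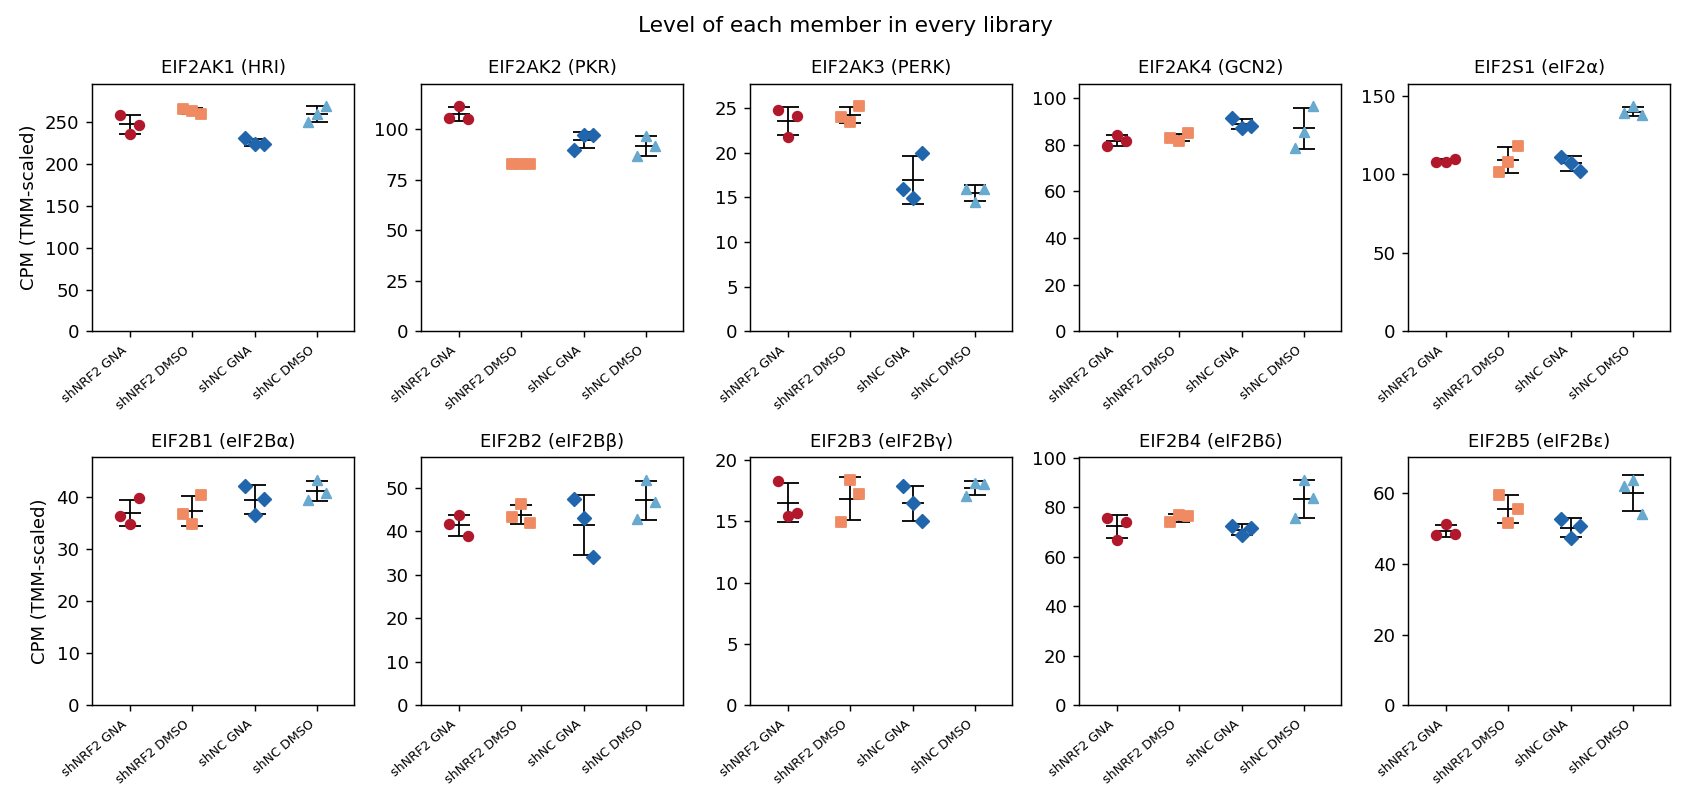
Level of each of the 10 genes in every library, in CPM on TMM-scaled totals with axes starting at 0. Points are libraries and bars are group means with SD (n = 3), in the order shNRF2 GNA, shNRF2 DMSO, shNC GNA, shNC DMSO. EIF2S1 is highest in shNC DMSO (140.1 CPM on average), EIF2AK2 in shNRF2 GNA (107.5 CPM), and EIF2AK3 is higher in both shNRF2 groups.

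EIF2S1, on chromosome 14 (67359997 to 67386516, plus strand), encodes eIF2α, the subunit that the 4 kinases phosphorylate. In shNRF2 cells it measured 108.1, 107.9 and 109.7 CPM under GNA and 101.4, 108.0 and 118.2 CPM under DMSO. In shNC cells it measured 111.4, 107.2 and 102.4 CPM under GNA, against 139.1, 143.5 and 137.6 CPM under DMSO. The 3 shNC DMSO libraries lay above all 9 others, and the other 3 groups overlapped. In shNRF2 cells the log2 fold change under GNA was -0.01 ± 0.06, with an interval of -0.12 to 0.11 (edgeR adjusted p = 0.942). EIF2S1 fell by 0.39 ± 0.06 on the log2 scale under GNA in shNC cells, a change of -23.6%, with an interval of -0.50 to -0.27 (edgeR adjusted p = 4.85e-06). The difference between the responses was 0.38 ± 0.08, with an interval of 0.22 to 0.55 (edgeR adjusted p = 0.00342).

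Between hairpins, EIF2S1 was lower in shNRF2 cells under DMSO by a log2 fold change of -0.36 ± 0.06, or -22.1% (edgeR adjusted p = 1.27e-05). Under GNA the hairpin difference was 0.02 ± 0.06, with an interval of -0.09 to 0.14 (edgeR adjusted p = 0.827). The 3 calls for EIF2S1 all use the shNC DMSO libraries and are 1 observation seen from 3 sides. Each stood in every other setting and without each library in turn. Without shNC DMSO library 1 the values were -0.39 for GNA in shNC cells (edgeR adjusted p = 1.6e-05), -0.38 for the hairpin under DMSO (2.54e-05) and 0.39 for the difference (0.00359).

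EIF2S1 lies head to head with ATP6V1D, a subunit of the vacuolar proton pump, whose RefSeq start is 524 bases away, and the 2 genes share 269 exonic bases on opposite strands. ATP6V1D averaged 110.5 ± 9.14 CPM in shNRF2 GNA, 108.4 ± 5.18 in shNRF2 DMSO, 128.4 ± 2.94 in shNC GNA and 158.8 ± 13.6 in shNC DMSO libraries (SD, n = 3 each). It was thus also highest in shNC DMSO. Its log2 fold change under GNA was 0.03 in shNRF2 cells (edgeR adjusted p = 0.770) and -0.31 ± 0.06 in shNC cells (edgeR adjusted p = 4.22e-04), and the difference was 0.34 ± 0.09 (edgeR adjusted p = 0.0219). It was also lower in shNRF2 cells under GNA, at -0.21 ± 0.06 (edgeR adjusted p = 0.0131), beside -0.55 ± 0.06 under DMSO (edgeR adjusted p = 1.33e-07). How reads from the shared exonic bases were assigned is not given in the sources used here, and their part in either gene's values was not tested.

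Of the 5 eIF2B genes, EIF2B4 and EIF2B5 were called, both for GNA in shNC cells. EIF2B3 and EIF2B5 encode γ and ε, the catalytic arm that carries the nucleotide exchange, and EIF2B1, EIF2B2 and EIF2B4 encode α, β and δ, the regulatory core that senses phosphorylated eIF2α. EIF2B5, on chromosome 3 (184135038 to 184146112, plus strand), measured 48.3, 51.4 and 48.5 CPM in shNRF2 GNA libraries, against 59.5, 51.5 and 55.7 CPM in shNRF2 DMSO. Among shNC libraries the values were 52.8, 47.3 and 50.8 CPM under GNA, against 62.0, 63.7 and 54.2 CPM under DMSO. The GNA libraries lay below the DMSO libraries without overlap in both backgrounds, in shNRF2 cells by a narrow gap. In shNRF2 cells its log2 fold change of -0.17 ± 0.07 was not called (edgeR adjusted p = 0.0718), while in shNC cells EIF2B5 fell by 0.26 ± 0.07 on the log2 scale (edgeR adjusted p = 0.0073). Without shNC DMSO library 1 the shNC value was -0.23 (edgeR adjusted p = 0.0265). The shNRF2 value passed without shNRF2 DMSO library 2 (edgeR adjusted p = 0.0353), and the shNC call was lost without shNC GNA library 2 (0.0543) and without shNC DMSO library 2 (0.053). The difference between the responses, 0.09 with an interval of -0.12 to 0.30, was not called (edgeR adjusted p = 0.718).

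EIF2B4, on chromosome 2 (27364352 to 27370486, minus strand), measured 75.7, 66.9 and 74.1 CPM in shNRF2 GNA libraries and 73.9, 76.7 and 76.5 CPM in shNRF2 DMSO, which overlapped. Among shNC libraries it measured 72.6, 68.6 and 71.7 CPM under GNA, against 75.7, 91.0 and 83.8 CPM under DMSO, with no overlap. Its log2 fold change in shNRF2 cells was -0.07 ± 0.07 (edgeR adjusted p = 0.470), and it fell by 0.24 ± 0.07 on the log2 scale in shNC cells (edgeR adjusted p = 0.00702). The shNC call was lost without shNC DMSO library 2 (edgeR adjusted p = 0.0754). Without shNC DMSO library 1 it was stronger, at -0.30 (8.21e-04), and EIF2B4 was then also called lower in shNRF2 cells under DMSO, at -0.22 (edgeR adjusted p = 0.0107), against -0.14 with all libraries (0.0959). For both EIF2B4 and EIF2B5 the shNC call did not stand with library totals in place of TMM, at log2 fold changes of -0.13 and -0.15 (edgeR adjusted p = 0.121 and 0.102). The difference between the EIF2B4 responses was 0.17 with an interval of -0.02 to 0.36 (edgeR adjusted p = 0.332).

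The remaining subunits were called nowhere. EIF2B2, on chromosome 14 (75002911 to 75012366, plus strand), measured 41.6, 43.6 and 38.8 CPM in shNRF2 GNA and 43.2, 46.2 and 41.9 CPM in shNRF2 DMSO. In shNC cells it measured 47.4, 43.1 and 34.0 CPM under GNA and 42.8, 51.8 and 46.6 CPM under DMSO. Its shNC GNA libraries were widely spread, and without shNC GNA library 1, the highest of them, the gene was called lower under GNA, at -0.29 (edgeR adjusted p = 0.0207), against -0.19 ± 0.09 with all libraries (0.127).

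EIF2B1, on chromosome 12 (123620406 to 123633766, minus strand), averaged 36.9 ± 2.49 CPM in shNRF2 GNA, 37.2 ± 2.87 in shNRF2 DMSO, 39.4 ± 2.80 in shNC GNA and 41.1 ± 1.93 in shNC DMSO (SD, n = 3 each). On the opposite strand it shares 536 exonic bases with DDX55 and 28 with GTF2H3. DDX55 averaged 90.4, 102.8, 91.6 and 112.2 CPM in the same group order. It was called lower under GNA, at -0.19 in shNRF2 and -0.29 in shNC cells. The part of the shared bases in the EIF2B1 values was not tested. EIF2B3, on chromosome 1 (44850522 to 44986722, minus strand), averaged 16.5 ± 1.59 CPM in shNRF2 GNA, 16.8 ± 1.77 in shNRF2 DMSO, 16.5 ± 1.40 in shNC GNA and 17.7 ± 0.60 in shNC DMSO. All 4 groups overlapped for EIF2B3, which had the narrowest span of group means among the 10 members, 0.11 on the log2 scale. Its 95% intervals still reached to -0.25 and 0.19 for GNA in shNRF2 cells and to -0.32 and 0.10 in shNC cells, so changes within those bounds are not excluded. Under GNA the fitted values of all 5 eIF2B genes were below 0 in both backgrounds, with medians of -0.07 in shNRF2 cells and -0.19 in shNC cells, while the medians of all tested genes were 0.01 and 0.02. With library totals in place of TMM the shNC median of all tested genes was 0.12, so the sign of small values rests on the scaling.

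Levels can be compared between genes only per length. The authors' FPKM is scaled to column totals and not with TMM, so differences between groups in FPKM need not match those in CPM. In the authors' FPKM, HRI was by far the most abundant kinase transcript, at 46.5 ± 2.17 in shNRF2 GNA, 47.4 ± 0.67 in shNRF2 DMSO, 42.1 ± 0.77 in shNC GNA and 45.05 ± 1.36 in shNC DMSO (SD, n = 3 each). It made up 70.3% to 75.7% of the summed FPKM of the 4 kinases in each library. PKR followed at 10.1 ± 0.28, 7.44 ± 0.03, 8.77 ± 0.39 and 7.91 ± 0.39 FPKM in the same group order, then GCN2 at 7.05, 6.86, 7.57 and 6.91 FPKM. PERK was lowest at 1.18 ± 0.08, 1.16 ± 0.04, 0.84 ± 0.13 and 0.71 ± 0.04 FPKM. The lengths behind these values, recovered from the ratio of counts to FPKM, were longer than single transcripts. For EIF2AK3 the length was 20691 bases, where its exons in GENCODE 29 cover 5434 and its longest coding transcript has 4646. Per kilobase of the longest coding transcript, an alternative added after seeing the data, the shNC DMSO means were 58.2 CPM for HRI, 15.8 for GCN2, 9.13 for PKR and 3.33 for PERK. HRI stayed first and PERK last, while PKR and GCN2 changed places, so their order is not settled by these data. The percent share of HRI given above rests on the deposited lengths and would differ with these.

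Among the factors the kinases act on, EIF2S1 measured 21.1 FPKM in shNRF2 GNA, 20.3 in shNRF2 DMSO, 20.6 in shNC GNA and 25.1 in shNC DMSO on average. EIF2B4 was the highest eIF2B subunit, at 14.37, 14.41, 13.96 and 15.3 FPKM in that order of groups, and EIF2B3 the lowest, at 4.99, 4.88, 4.93 and 4.94 FPKM. EIF2B4 stayed first and EIF2B3 last per kilobase of the longest coding transcript, at 42.8 and 9.21 CPM in shNC DMSO, while EIF2B1, EIF2B2 and EIF2B5 changed order. The eIF2B subunits form a complex with equal numbers of each, which is a statement on protein and not on transcript.

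**Figure D3:**
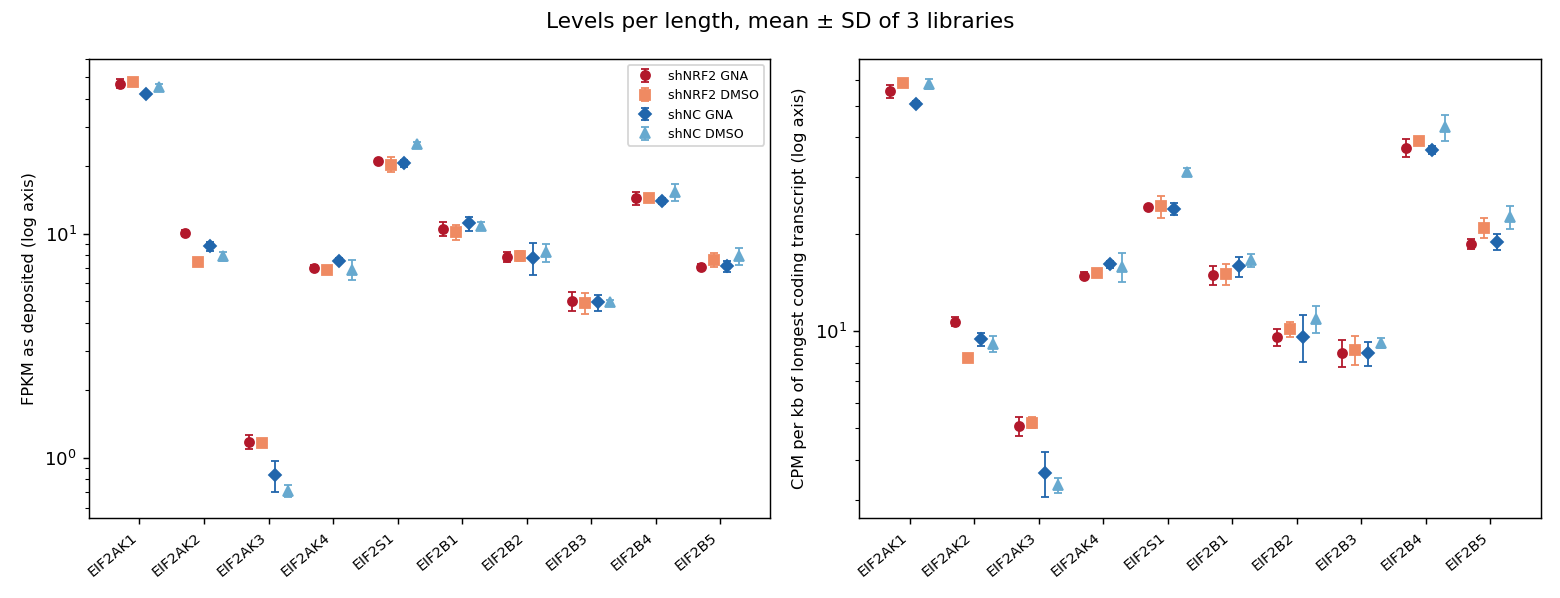
Level per length of the 10 genes as mean and SD of 3 libraries in each group, on log axes, in the authors' FPKM (left) and in CPM per kilobase of the longest coding transcript (right). EIF2AK1 is the highest and EIF2AK3 the lowest kinase under both lengths, at 45.05 and 0.71 FPKM in shNC DMSO, while EIF2AK2 and EIF2AK4 change places.

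The rest of the pathway was described from lists of genes by role. Under GNA, 16.7% of all tested genes were called higher and 17.0% lower in shNRF2 cells, and 14.6% and 16.1% in shNC cells. Between hairpins, 12.8% were higher and 13.3% lower in shNRF2 cells under GNA, and 16.8% and 18.3% under DMSO. These shares are the background for the counts of each list, here and below. In the lists of partners, phosphatases and kinase regulators, most counts lay within 2 genes of them. The partner list of 11 genes also held EIF2A, EIF2D, MCTS1 and DENR, which can act without eIF2. Of these 11 genes, 2 were higher and 3 lower under GNA in shNRF2 cells, and 3 were higher and 4 lower in shNC cells. EIF2A was among those lower in shNC cells, at -0.20 (edgeR adjusted p = 0.00878). EIF5, which triggers GTP hydrolysis by eIF2 and holds back GDP release, averaged 261.2 ± 6.45 CPM in shNRF2 GNA, against 136.6 ± 4.66 in shNRF2 DMSO, and 234.9 ± 6.60 in shNC GNA, against 176.9 ± 4.74 in shNC DMSO. It rose by 0.94 ± 0.05 on the log2 scale in shNRF2 cells (edgeR adjusted p = 1.63e-14) and by 0.41 ± 0.05 in shNC cells (1.8e-07). The difference of 0.53 ± 0.07 was called (edgeR adjusted p = 9.62e-06). EIF1, which guards start codon choice, rose by 0.50 and 0.33 in shNRF2 and shNC cells. EIF5B, which joins the ribosomal subunits, had log2 fold changes of -0.41 in shNRF2 and -0.55 in shNC cells, EIF1AX, which acts in scanning, of -0.29 and -0.38, and CDC123, a chaperone for the assembly of eIF2, of -0.25 and -0.54, all called. Between hairpins, 2 genes of this list were higher and 3 lower in shNRF2 cells under GNA, and 0 higher and 6 lower, DENR among them, under DMSO.

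Among the other subunits of eIF2, EIF2S3 (eIF2γ) averaged 165.5 ± 4.99 CPM in shNRF2 GNA, against 202.4 ± 5.54 in shNC GNA, and 163.0 ± 9.72 CPM in shNRF2 DMSO, against 203.5 ± 4.35 in shNC DMSO. It was lower in shNRF2 cells in both treatments, by -0.29 ± 0.05 under GNA (edgeR adjusted p = 8.5e-05) and -0.32 ± 0.05 under DMSO (1.58e-05). EIF2S2 (eIF2β) averaged 959.7 ± 13.8 CPM in shNRF2 GNA, 884.2 ± 55.7 in shNRF2 DMSO, 985.6 ± 47.0 in shNC GNA and 878.9 ± 71.4 in shNC DMSO. It rose by 0.17 ± 0.05 on the log2 scale under GNA in shNC cells (edgeR adjusted p = 0.0207), where EIF2S1 fell.

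Of 5 genes for the phosphatases that reverse the phosphorylation, 1 was higher and 2 lower under GNA in each background. PPP1R15A (GADD34), the stress-induced subunit that directs protein phosphatase 1 to eIF2α, averaged 964.8 ± 4.49 CPM in shNRF2 GNA, against 435.5 ± 15.2 in shNRF2 DMSO, and 720.5 ± 32.2 in shNC GNA, against 434.8 ± 8.04 in shNC DMSO. It rose by 1.15 ± 0.04 in shNRF2 cells and by 0.73 ± 0.04 in shNC cells, and the difference of 0.42 ± 0.06 was called (edgeR adjusted p = 8.02e-05). PPP1CC, a catalytic subunit of the phosphatase, had log2 fold changes of -0.62 in shNRF2 and -0.60 in shNC cells, and PPP1CA, another, of -0.23 and -0.25, all called.

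Among 9 regulators of the kinases, 1 was higher and 1 lower under GNA in shNRF2 cells, and 2 were higher and 1 lower in shNC cells. HSPA5 (BiP), the ER chaperone that holds PERK inactive, averaged 2967 ± 75.5 CPM in shNRF2 GNA, against 1896 ± 76.5 in shNRF2 DMSO, and 1431 ± 60.2 in shNC GNA, against 1225 ± 96.1 in shNC DMSO. It was higher in shNRF2 cells in both treatments, by 1.05 ± 0.05 under GNA and 0.63 ± 0.05 under DMSO on the log2 scale. It also rose under GNA, by 0.65 in shNRF2 and 0.22 in shNC cells. The difference between those responses, 0.42 ± 0.07, was called (edgeR adjusted p = 3.45e-04). DNAJC3, an inhibitor of PKR and PERK, was higher in shNRF2 cells by 0.22 under GNA and 0.17 under DMSO (edgeR adjusted p = 0.0046 and 0.0239). PRKRA, an activator of PKR, was higher in shNRF2 cells under DMSO by 0.26 (edgeR adjusted p = 0.0295). NCK1, an adaptor that counters eIF2α phosphorylation, had log2 fold changes under GNA of -0.46 in shNRF2 and -0.29 in shNC cells, both called. Of the route by which mitochondrial stress reaches HRI, the protease OMA1 was not called under GNA in shNRF2 cells (log2 fold change 0.11). It was higher in shNC cells by 0.39 ± 0.14 (edgeR adjusted p = 0.0398), at 87 to 156 counts per library over all groups. The difference between its responses, -0.28 with an interval of -0.70 to 0.14, was not called (edgeR adjusted p = 0.503). DELE1 was called under GNA in neither background.

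Of 12 genes known as output of the integrated stress response, 9 were higher and 0 lower under GNA in shNRF2 cells, and 12 were higher in shNC cells. Their median log2 fold changes were 1.09 in shNRF2 and 1.115 in shNC cells. DDIT3 (CHOP), a transcription factor of prolonged stress, averaged 89.8 ± 4.72 CPM in shNRF2 GNA, against 19.8 ± 1.11 in shNRF2 DMSO, and 49.7 ± 2.37 in shNC GNA, against 12.0 ± 1.44 in shNC DMSO. It rose by 2.18 on the log2 scale in shNRF2 cells and by 2.05 in shNC cells. NUPR1, a stress-induced chromatin protein, rose by 1.81 and 2.23 in those backgrounds, and TRIB3, a pseudokinase that restrains ATF4, by 1.61 and 1.49. The ATF4 transcript itself, which is controlled in large part by translation, had a log2 fold change of 0.10 in shNRF2 cells that was not called (edgeR adjusted p = 0.0707), and rose by 0.25 ± 0.04 in shNC cells (5.51e-05). The difference between the ATF4 responses, -0.15, was not called (edgeR adjusted p = 0.159). In the difference of the responses 0 of the 12 output genes were positive and 3 negative (CHAC1, CEBPB and NUPR1), at -1.72, -0.79 and -0.41. Of all tested genes 3.58% were positive and 3.24% negative. CHAC1 rests on 2 to 11 counts per shNC DMSO library. Between hairpins, 5 output genes were higher and 1 lower in shNRF2 cells under GNA, and 8 higher and 1 lower under DMSO.

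**Figure D4:**
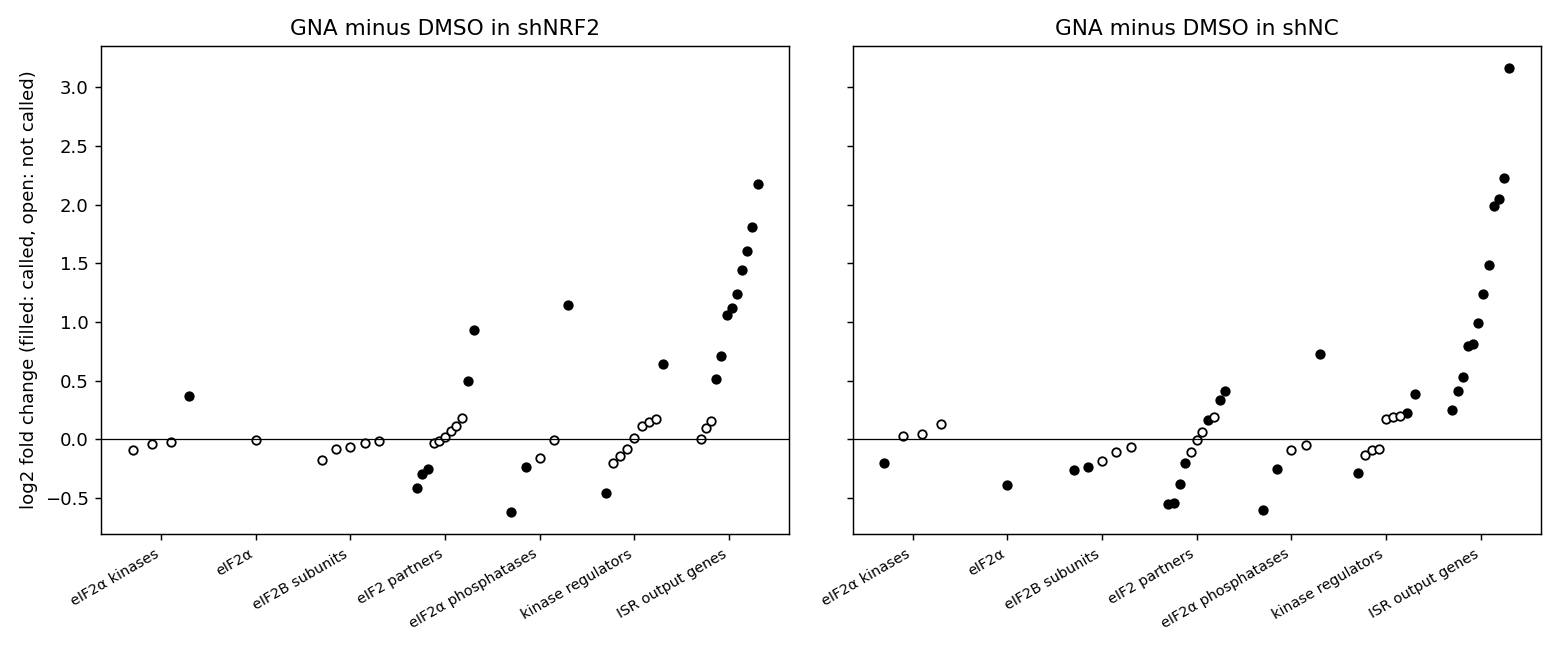
Log2 fold changes under GNA of the genes of each pathway list, 1 point per gene, with filled points past the adjusted p threshold. The members lie between -0.39 and 0.37 in both backgrounds, while output genes reach 2.18 in shNRF2 cells and 3.17 in shNC cells. The value of 3.17 is that of CHAC1, with 2 to 11 counts per shNC DMSO library, and NUPR1 follows at 2.23.

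For comparison with other initiation factors, 2 of 13 eIF3 subunits were higher and 2 lower under GNA in shNRF2 cells, and 0 were higher and 6 lower in shNC cells. Of 12 genes named for eIF4, 1 was higher and 7 lower in shNRF2 cells, and 1 was higher and 6 lower in shNC cells. The higher gene was EIF4EBP1 in both, at 0.51 in shNRF2 and 0.94 in shNC cells. It and EIF4EBP2, also in this list, encode repressors of eIF4E and not initiation factors. The median log2 fold change under GNA in shNC cells was -0.15 for the 10 members and -0.15 for the eIF3 subunits. It was -0.20 for the eIF4 list, against 0.02 for all genes tested. In the comparison of hairpins under DMSO the medians were -0.11, -0.22 and -0.15, against 0.01 for all genes. Both comparisons use the shNC DMSO libraries. For GNA in shNRF2 cells the medians were -0.04, 0.01 and -0.26, against 0.01 for all genes. For the hairpins under GNA they were 0.01, -0.08 and -0.12, against 0.01 for all genes. No test between these medians was made.

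The genes nearest to EIF2AK3 in pattern over the 4 groups, among 14391 genes compared, were LAMA5, SLC25A45 and LINC01515, with root mean square differences of centred log2 CPM of 0.0201, 0.0209 and 0.0249. LAMA5 averaged 358.0 CPM in shNRF2 GNA, 369.5 in shNRF2 DMSO, 265.3 in shNC GNA and 235.3 in shNC DMSO. EIF2AK3 had the widest span of group means among the kinases, 0.64 on the log2 scale, and EIF2B5 among the eIF2B subunits, 0.28. For EIF2B5 the nearest genes were HOMEZ, UBE2E1 and OPA1, at 0.00465, 0.00655 and 0.00734. Among so many genes some lie near any pattern of 4 means, and the likeness is a description.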

How the data were processed

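The deposited gene table holds counts and FPKM per gene for 12 libraries, and the members were read by symbol. Per the submitters' processing notes the build was GRCh38 and DESeq2 was used by the authors. Not given in the sources used here are aligner, counter, versions and use of strand. The deposited counts are whole read counts per gene. The authors' FPKM equals the count divided by the column total and 1 fixed length per gene.

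Counts were fitted in edgeR 4.0.16 (R 4.3.3) with TMM scaling, all 12 libraries and 1 coefficient per group, after filterByExpr (minimum count 10, minimum total 15) kept 15653 genes holding 99.8% of counts. The quasi-likelihood test was used with Benjamini-Hochberg adjustment over all genes tested, and a gene was called at an adjusted p under 0.05. Standard errors are the size of the log2 fold change divided by the square root of F, and 95% intervals use the degrees of freedom of the fit. CPM uses TMM-scaled totals, with no prior count. Counting error and spread between libraries are both within these errors. An exact permutation test of 3 against 3 libraries cannot go below 0.1 and was not used. DESeq2 1.42.0, limma 3.58.1 on log2 FPKM, other scalings and filters, and leaving out each library were the alternatives.

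Genes were named by rule: the 10 members, NFE2L2, from each pathway list up to 3 called genes in each direction by size of change, counts and medians for the eIF3 and eIF4 lists, and the 3 genes nearest in pattern to the kinase and the eIF2B subunit of widest span. EIF2S2, EIF2S3, EIF2A, EIF2D, MCTS1, DENR, ATF4, DNAJC3, DELE1, EIF4EBP1 and EIF4EBP2 were added for their role, after their values were seen. So were genes whose exons overlap a member, for their position. The members and lists were chosen with earlier results of these data known. The labels name no pairing by replicate number. Of 18 same-numbered pairs, 0 had deviations correlated over 0.1, though a weak shared effect could be missed this way. Positions are from GENCODE 29 on GRCh38. All table columns matched a sample.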

Additional observations from a re-analysis of the deposited data

Results flagged for a closer look

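The GNA response of 2 members differed between the hairpins by a test of the difference itself, the interaction term of the edgeR fit. For EIF2S1 the response in shNRF2 cells minus that in shNC cells was 0.38 on the log2 scale (edgeR adjusted p = 0.00342), with shNRF2 libraries at 107.9 to 109.7 CPM under GNA against 101.4 to 118.2 under DMSO, and shNC libraries at 102.4 to 111.4 under GNA against 137.6 to 143.5 under DMSO. For EIF2AK2 it was 0.33 (edgeR adjusted p = 0.0117), with shNRF2 libraries at 105.3 to 111.5 CPM under GNA against 82.9 to 83.1 under DMSO, and shNC libraries at 89.9 to 97.2 under GNA against 86.8 to 96.8 under DMSO.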

How the results depend on the processing

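Of 1090 values of single members under other settings, 982 kept their sign and call, 42 lost and 5 gained a call, none that was called reversed, and 61 uncalled values changed sign. Most of the 982 were never called and stayed uncalled, so their share of all values does not measure how stable the calls were. Called for GNA in shNRF2 cells were 1 member and 5274 genes, with 2 members when only the compared groups were fitted. Called for GNA in shNC cells were 4 members and 4810 genes, with 2 members under library totals (EIF2AK2 higher, EIF2S1 lower) and 1 by limma on log2(FPKM + 1) or log2(FPKM + 0.1) (EIF2S1). For the hairpins under GNA 3 members and 4090 genes were called, with 1 member under no low-count filter (EIF2AK3). For the difference 2 members and 1068 genes were called, against 1 member (EIF2S1) and 657 or 603 genes by limma with pseudocounts of 1 or 0.1.

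Leaving out 1 library gave 1 to 2 members and 4532 to 5468 genes for GNA in shNRF2 cells, 2 to 5 and 3827 to 4840 for GNA in shNC cells, 2 to 3 and 3334 to 4302 for the hairpins under GNA, 2 to 4 and 4467 to 5604 for the hairpins under DMSO (3 and 5508 with all), and 2 and 700 to 1437 for the difference, with the lowest count of 700 without shNC GNA library 2. Where these counts moved, the cause was not tested.

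Library totals in place of TMM moved the split of calls to 3356 higher and 2091 lower for GNA in shNRF2 cells (2617 and 2657 with TMM), 3543 and 1542 in shNC cells (2284 and 2526), 3226 and 2266 for the hairpins under DMSO (2636 and 2872), and 414 and 674 for the difference (561 and 507). The replicate number was also used as a block, although the labels name no pairing and same-numbered libraries had correlations of only -0.0436 to 0.0275. With it, 1 member and 5138 genes were called for GNA in shNRF2 cells, and 4 and 4683 for GNA in shNC cells. For the hairpins, 2 and 3968 were called under GNA and 2 and 5360 under DMSO, and for the difference 2 and 915. The block ended the calls of EIF2AK1 for the hairpins under GNA and EIF2AK2 for the hairpins under DMSO. At 221 to 392 counts per library for EIF2AK3 and 225 to 295 for EIF2B3, depth limits these 2 genes most.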
